A study of Mus musculus with 21 samples.

Results

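The collagen genes of mouse fibroblasts, of cells on chemical routes to a hepatocyte state and of cultured hepatocytes were compared. The 44 genes were all protein-coding genes in the deposited count tables whose symbol is Col, a type number, the letter a and a chain number, out of 54532 genes in those tables. They were read in all 21 libraries and sorted into 9 classes by known structure: 11 fibrillar chains, 6 basement membrane network chains, 6 beaded filament chains, 9 fibril-associated (FACIT) chains, 4 transmembrane chains, 3 short chain network chains, 2 multiplexins, 1 anchoring fibril chain and 2 others. All 44 had at least 1 count in some library.

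The study is a poly-A RNA-seq comparison of wild-type mouse cells in 7 groups. NSF-CiHeps (n = 3) began as neonatal skin fibroblasts and C6F5UE-C6F(L)V (n = 3) as embryonic fibroblasts. Both had a first stage in medium with KSR, 10% FBS and bFGF at 50 ng/ml, to which CHIR99021 was added at 20 µM, Forskolin at 50 µM and the compound 616452 at 10 µM. That stage also held EPZ004777 at 5 µM, the retinoid CH55 at 1 µM and UNC0638 at 0.05 µM. From day 4 they were kept in hepatocyte medium with the C6F(L) compounds and 50 µg/ml vitamin C. C6FAE-C6F(L) (n = 4) are embryonic fibroblasts that passed through the C6FAE stage until day 4 and then the C6F(L) stage, without vitamin C. C6FAE (n = 3) received that first stage alone, with 0.05 µM AM580 and no CH55 or UNC0638 beside CHIR99021, 616452, Forskolin and EPZ004777 at the doses above. C6F(L) (n = 3) received the second stage alone: hepatocyte medium with 1 µM dexamethasone, FGF4 at 10 ng/ml, HGF and EGF at 20 ng/ml each, and CHIR99021, 616452 and Forskolin at 20, 10 and 50 µM for 4 days, then at 3, 2 and 2 µM. pHeps (n = 2) are hepatocytes isolated from liver and cultured for 2 days. MEF (n = 3) are the untreated embryonic fibroblasts, in DMEM with 10% FBS. CHIR99021 inhibits the kinase GSK3, 616452 inhibits the TGF-beta receptor ALK5, and Forskolin raises cyclic AMP. The labels give no harvest day for the treated groups and do not say whether replicates are separate cultures, so that the spread between them may be technical. Untreated neonatal skin fibroblasts were not analysed here.

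Collagens are secreted or membrane proteins whose chains wind around one another along repeats with glycine at every turn. Before secretion their prolines and lysines are hydroxylated by enzymes that need vitamin C, and the chains are folded by chaperones, trimmed outside the cell and crosslinked by lysyl oxidases. Fibroblasts are the main source of the fibrillar types I, III and V. In liver, hepatocytes make little fibrillar collagen, which comes from stellate cells and portal fibroblasts, while Col18a1 is known as a hepatocyte product. Type IV chains form the sheet of basement membranes, on which epithelia rest.

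The windows printed here belong to the members on which the results turn: the type IV pair with the narrowest range of chain ratios among the 5 pairs compared, and 1 member each of the fibrillar, short chain and transmembrane classes, which were high in different groups. Each runs from 250 bases before to 50 bases after the RefSeq gene start on GRCm38.p6, 5′ to 3′ on the strand of the gene. RefSeq promoter entries matched 35 of the 44 members. Col4a1 and Col4a2 are transcribed away from each other on chromosome 8 and their annotated 5′ ends share 22 bases, shown in capitals.
Col4a1 (chr8:11312777-11313076, minus strand): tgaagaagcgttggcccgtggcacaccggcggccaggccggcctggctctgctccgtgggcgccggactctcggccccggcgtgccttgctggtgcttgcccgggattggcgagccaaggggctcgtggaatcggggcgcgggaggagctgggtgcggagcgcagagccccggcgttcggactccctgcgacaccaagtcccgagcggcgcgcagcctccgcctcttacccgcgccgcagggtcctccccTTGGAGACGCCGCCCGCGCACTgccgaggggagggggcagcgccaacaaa
Col4a2 (chr8:11312555-11312854, plus strand): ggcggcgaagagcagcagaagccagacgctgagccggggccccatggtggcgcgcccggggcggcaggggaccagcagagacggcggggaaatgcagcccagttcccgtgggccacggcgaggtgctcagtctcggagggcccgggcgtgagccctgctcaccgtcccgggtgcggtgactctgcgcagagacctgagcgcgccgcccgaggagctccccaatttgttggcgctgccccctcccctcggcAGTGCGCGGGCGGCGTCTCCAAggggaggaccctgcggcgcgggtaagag
In the next windows the capitals mark TATAAA and CCAAT, searched on both strands; the matches shown do not overlap.
Col3a1 (chr1:45311288-45311587, plus strand): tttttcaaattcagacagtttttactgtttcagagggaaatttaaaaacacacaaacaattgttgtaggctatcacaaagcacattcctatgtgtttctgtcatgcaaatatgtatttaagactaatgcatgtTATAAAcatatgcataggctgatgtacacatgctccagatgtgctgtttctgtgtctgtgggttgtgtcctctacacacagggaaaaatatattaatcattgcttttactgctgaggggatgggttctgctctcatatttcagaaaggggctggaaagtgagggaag
Col10a1 (chr10:34389731-34390030, plus strand): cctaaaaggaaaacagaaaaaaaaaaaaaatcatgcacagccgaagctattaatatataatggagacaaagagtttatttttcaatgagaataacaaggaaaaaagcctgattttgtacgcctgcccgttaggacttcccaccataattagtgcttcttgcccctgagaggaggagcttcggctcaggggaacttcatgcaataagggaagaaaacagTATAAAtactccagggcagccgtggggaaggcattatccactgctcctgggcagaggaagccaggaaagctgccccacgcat
Col17a1 (chr19:47691993-47692292, minus strand): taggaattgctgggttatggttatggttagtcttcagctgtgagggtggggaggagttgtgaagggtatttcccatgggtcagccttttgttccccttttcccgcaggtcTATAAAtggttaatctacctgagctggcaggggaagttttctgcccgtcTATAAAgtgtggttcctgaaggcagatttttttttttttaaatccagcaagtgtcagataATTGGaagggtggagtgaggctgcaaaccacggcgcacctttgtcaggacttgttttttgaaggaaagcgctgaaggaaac
TATAAA was found for 5 of the 35 members and in 13.6% of 32851 promoter windows of the same length, and CCAAT for 13 of 35 members and in 37.4% of windows. Col9a1, Col6a2 and Col18a1 had an additional window, and a match in either counted for the member. The Col17a1 window holds TATAAA at 140 and 91 bases before the start and CCAAT, read on the other strand, at 31 bases before it. The Col10a1 window holds TATAAA at 32 bases before the start and the Col3a1 window at 117. A match is a description of the letters only.

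The libraries held 9180939 to 12319883 counts. Replicate 4 of C6FAE-C6F(L) stood apart: ribosomal protein genes took 3.42% of its counts and 7.21 to 8.80% of those of replicates 1 to 3, and it was the highest of the 4 in 31 of the 37 members with at least 10 counts in that group. The same share over all genes was not counted. A fold change of a member in C6FAE-C6F(L) that moved by over 1.5 times without replicate 4 is given both ways. Levels are given as CPM, the count scaled to the library total multiplied by its TMM factor, which lay between 0.932 and 1.10 and gave effective sizes of 10024142 to 12575290. The 10 fibroblast markers summed to 32.5 to 67.6 CPM in NSF-CiHeps, 58.1 to 88.2 CPM in C6F5UE-C6F(L)V, 302 to 1223 CPM in C6FAE-C6F(L), 4007 to 4515 CPM in C6FAE, 5157 to 5436 CPM in C6F(L), 25.5 to 32.5 CPM in pHeps and 5661 to 5908 CPM in MEF, with none of the 10 at 0 in any group. Postn averaged 336 CPM in C6FAE, 603 CPM in C6F(L) and 2132 CPM in MEF. Pdgfrb, Prrx1, Fap and Lum were also lower in C6FAE and C6F(L) than in MEF. Pdgfra, Twist1 and Twist2 were higher in both, with Pdgfra at 1605 CPM in C6FAE, 678 CPM in C6F(L) and 326 CPM in MEF. Against MEF, Thy1 was higher in C6FAE and lower in C6F(L), and Dcn the reverse. The 10 hepatocyte markers summed to 390.5 to 2327 CPM in NSF-CiHeps, whose cell type label is fibroblast-hepatocyte, 21776 to 28603 CPM in C6F5UE-C6F(L)V, where Cyp2e1 was at 0, 505 to 1595 CPM in C6FAE-C6F(L) and 25275 to 26609 CPM in pHeps. Apoa1 averaged 12250 CPM in C6F5UE-C6F(L)V and 2598 CPM in pHeps, while Alb averaged 9225 and 16920 CPM and Fgb 1350 and 4881 CPM. Ttr, Serpina1a, Serpina1b and Ass1 were also higher in C6F5UE-C6F(L)V than in pHeps, and Apoa2, Hnf4a and Cyp2e1 were lower. In MEF 7 of the 10 were at 0. The 6 macrophage markers summed to 8.71 to 11.3 CPM in C6FAE, where 4 of them were at 0, 8.63 to 11.4 CPM in C6F(L) and 1228 to 1547 CPM in MEF, so that they moved with every fall of C6FAE and C6F(L) against MEF; their part was not tested. In these bulk samples, fewer cells of a type and less RNA per cell cannot be told apart.

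All collagen genes together took a smaller share of the counts in every treated group than in MEF, and a far smaller one where both stages were given. They held 0.191, 0.135 and 0.248% of all counts in NSF-CiHeps, 0.137, 0.137 and 0.122% in C6F5UE-C6F(L)V, and 0.644, 0.460, 0.418 and 1.72% in C6FAE-C6F(L). The share was 2.28, 2.38 and 2.40% in C6FAE and 4.64, 4.93 and 4.73% in C6F(L). It was 0.0237 and 0.0233% in pHeps, and 5.33, 5.44 and 5.25% in MEF. No library of a treated group reached the lowest MEF value, and pHeps lay below all other libraries. The collagen share of C6FAE-C6F(L) averaged 0.810% over its 4 libraries and 0.507% without replicate 4. Without Col1a1, Col1a2 and Col3a1, a choice made after seeing the data, the order of C6F(L) and MEF turned round: the other members held 2.32, 2.30 and 2.29% in C6F(L), against 2.16, 2.25 and 2.12% in MEF, while C6FAE stayed below MEF at 1.58, 1.60 and 1.63%. The shares are given as a description, without a test.

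The make-up of the collagen counts also differed between groups. Fibrillar chains held 1.69 to 4.99% of collagen counts in NSF-CiHeps, 13.1 to 15.1% in C6F5UE-C6F(L)V, 9.19 to 27.1% in C6FAE-C6F(L), 40.0 to 42.5% in C6FAE, 59.8 to 62.9% in C6F(L), 6.44 to 7.45% in pHeps and 72.0 to 72.7% in MEF. Basement membrane chains held 54.9 to 67.5% in NSF-CiHeps, 28.3 to 30.8% in C6F5UE-C6F(L)V, 22.8 to 42.8% in C6FAE-C6F(L), 45.7 to 47.9% in pHeps and 8.43 to 9.03% in MEF. The multiplexins, almost entirely Col18a1, held 30.2 to 31.7% in C6F5UE-C6F(L)V and 36.8 to 38.2% in pHeps, against 0.852 to 0.899% in MEF. Transmembrane chains held 7.38 to 34.6% in C6FAE-C6F(L) and at most 0.772% in any other library.

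**Figure D1:**
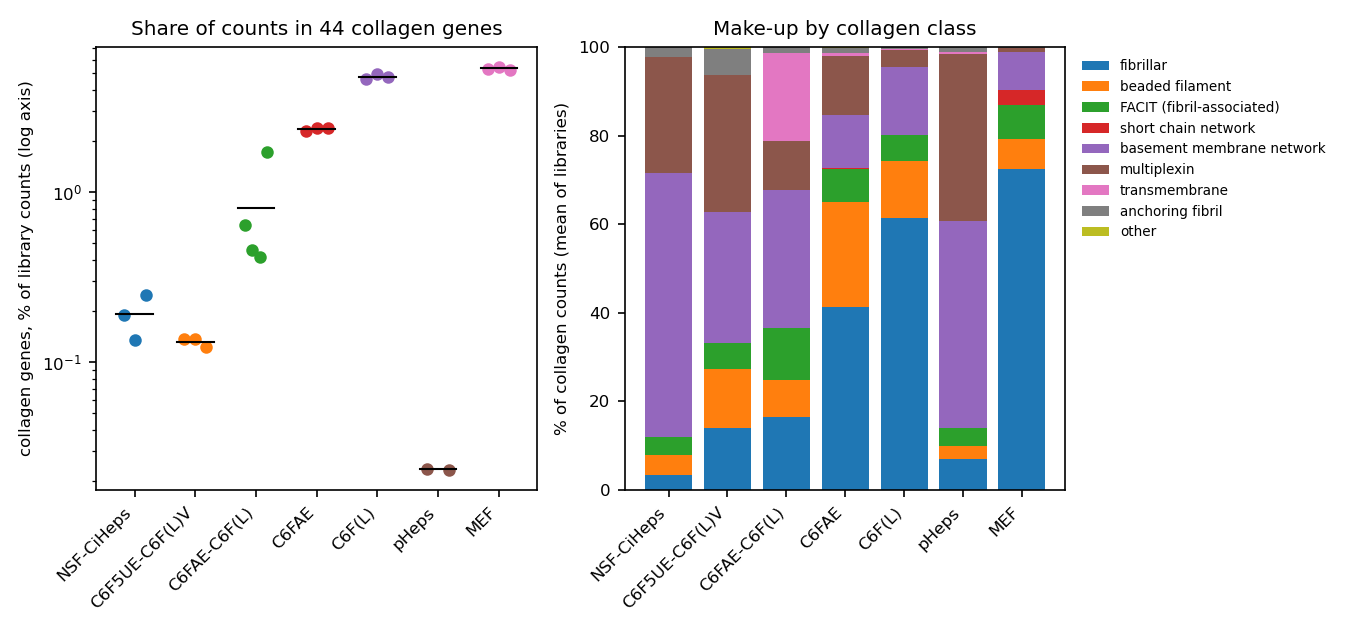
Left, the share of all counts in the 44 collagen genes in each of the 21 libraries (percent, log axis), with the group mean as a bar; right, the mean share of each of the 9 classes in the collagen counts of each group (percent). Collagen held 5.25 to 5.44% of counts in MEF and 0.0233 to 0.0237% in pHeps, and the fibrillar part is largest in MEF and C6F(L).

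Counts per kilobase of deposited gene length, the scale used wherever genes are set against each other, put Col4a1, Col4a2 and Col18a1 first in NSF-CiHeps at 85.1, 70.5 and 68.3 CPM per kb. Col18a1, Col6a1 and Col4a1 led C6F5UE-C6F(L)V at 52.7, 31.4 and 21.4 CPM per kb. Col17a1, Col4a1 and Col4a2 led C6FAE-C6F(L) at 204, 201 and 146 CPM per kb. Col6a1, Col1a1 and Col18a1 led C6FAE at 681, 572 and 425 CPM per kb, and Col1a1, Col3a1 and Col6a1 led C6F(L) at 1316, 1140 and 612 CPM per kb. Col18a1, Col4a1 and Col4a2 led pHeps at 12.3, 8.81 and 5.89 CPM per kb, while Col1a1, Col3a1 and Col1a2 led MEF at 1932, 1030 and 846 CPM per kb. Within C6FAE-C6F(L), Col17a1 had 122, 224, 269 and 203 CPM per kb and Col4a1 had 222, 112, 82.3 and 387 CPM per kb, so that Col4a1 was the higher of them in replicates 1 and 4. With the length of 1 principal transcript, an alternative chosen after seeing the data, Col4a1 led that group at 227 CPM per kb, before Col17a1 at 215 CPM per kb. On that length the leading 3 of NSF-CiHeps and MEF were the same genes in another order, and in C6F(L) Col3a1, Col1a1 and Col1a2 led. Hepatocyte cultures and NSF-CiHeps shared the same 3 leading members on either length. The group with the highest mean CPM was MEF for 19 members, C6F(L) for 11, C6FAE for 9, C6FAE-C6F(L) for 4 and C6F5UE-C6F(L)V for 1, Col11a2. No count at all was found for 6 members in NSF-CiHeps, 7 in C6F5UE-C6F(L)V, 2 in C6FAE-C6F(L), 2 in C6F(L) and 13 in pHeps.

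**Figure D2:**
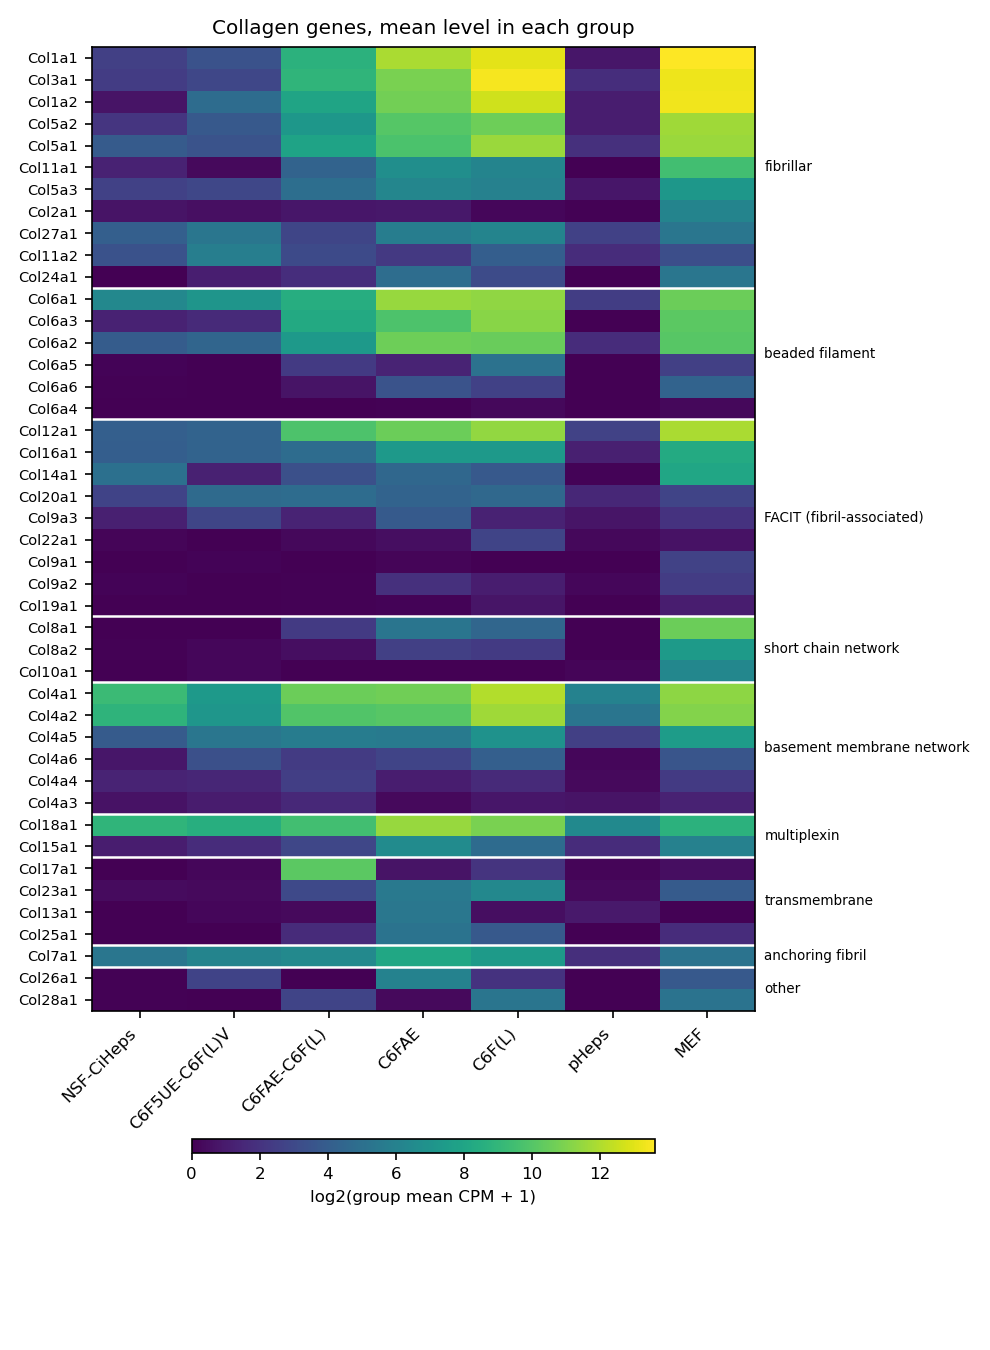
Mean level of each of the 44 members in each of the 7 groups, as log2(group mean CPM + 1), in rows by class. Most fibrillar and all short chain rows are brightest in MEF, Col17a1 is bright in C6FAE-C6F(L) alone at a mean of 1179 CPM, and Col18a1, Col4a1 and Col4a2 remain visible in pHeps at 86.6, 65.8 and 39.0 CPM.

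The first comparison asks what the C6FAE stage alone did to the collagen genes of embryonic fibroblasts. Most fibrillar and all short chain members fell, while Col18a1, Col7a1, Col26a1 and 3 of 4 transmembrane members rose. Of 42 members tested with edgeR's quasi-likelihood test, 8 were called higher and 19 lower, where 15.6% and 14.7% of all genes tested were called higher and lower. A call needed a Benjamini-Hochberg adjusted p under 0.05 over all genes and a log2 fold change of at least 1 in size. The median log2 fold change was -0.99 over the members and 0.02 over all genes.

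Of the 11 fibrillar chains 8 fell. Col1a1, a chain of type I collagen (ENSMUSG00000001506), had 3389.7, 4046 and 3827 CPM in C6FAE, against 12223, 13313 and 12501 CPM in MEF. The groups did not overlap (log2 fold change -1.75, SE 0.66, adjusted p = 0.040). Its partner Col1a2 had 1682, 1735 and 1679 CPM in C6FAE, against 10451, 10615 and 10452 CPM in MEF (log2 fold change -2.63, SE 0.74, adjusted p = 0.0098). Col3a1, the chain of type III collagen, common in pliable tissue, had 1822, 1995 and 1936 CPM in C6FAE, against 10291, 9869.7 and 10177 CPM in MEF (log2 fold change -2.40, SE 0.84, adjusted p = 0.029). The cartilage fibril chain Col2a1 had 1.07, 0.934 and 0.594 CPM in C6FAE, against 60.7, 92.8 and 60.1 CPM in MEF, a level 82.1-fold lower in C6FAE (log2 fold change -6.34, SE 0.51, adjusted p = 1.3e-06). Across these 4 genes every C6FAE library lay below every MEF library. The calls of Col1a1, Col3a1, Col5a2 and Col12a1 were each lost when any 1 library of C6FAE or MEF was left out, with an adjusted p for Col1a1 of up to 0.11. Without replicate 4 of C6FAE-C6F(L), which enters the shared spread of the fit, the adjusted p of Col1a1 was 1.89e-05. The fall of Col11a2 was lost without C6FAE replicate 1 or 2 or MEF replicate 1 or 3, and the rise of Col23a1 without MEF replicate 3 (adjusted p = 0.0528).

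The short chain network members, which form hexagonal lattices rather than fibrils, all fell. Col8a1, a chain of vessel walls and of the basement membrane of the corneal endothelium, had 33.5, 40.7 and 40.1 CPM in C6FAE, against 1398, 1593 and 1639 CPM in MEF (log2 fold change -5.33, SE 0.68, adjusted p = 4.4e-05). Its partner Col8a2 had 4.52, 5.26 and 5.09 CPM in C6FAE, against 168, 186 and 168 CPM in MEF (log2 fold change -5.13, SE 0.29, adjusted p = 7.8e-08). Col10a1, the collagen of hypertrophic cartilage, had 0, 0 and 0.0849 CPM in C6FAE, against 62.7, 89.4 and 85.2 CPM in MEF. With 1 count in all in C6FAE it was 2832-fold lower, with an exact 95% interval of 508 to 111900-fold for counting error only. Summed levels of 7 chondrocyte markers were 20.9 to 24.95 CPM in C6FAE and 64.6 to 84.3 CPM in MEF. Most of that fall lay in Comp, at a mean of 1.60 CPM in C6FAE and 46.99 CPM in MEF. Acan, Matn1, Cnmd and Sox9 were also lower. Matn3 went the other way, at 6.80 CPM in C6FAE and 2.305 CPM in MEF, as did Hapln1, at 2.43 and 1.695 CPM. The part of these markers in the result was not tested.

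The 8 members that rose were all outside the fibrillar class. Col18a1, the multiplexin whose end fragment is endostatin (ENSMUSG00000001435), had 2914, 2931 and 3100.2 CPM in C6FAE, against 405, 453 and 418 CPM in MEF, a level 7.01-fold higher in C6FAE (log2 fold change 2.81, SE 0.17, adjusted p = 1.3e-07). Col7a1, the chain of the anchoring fibrils beneath the epidermis, had 265, 269.5 and 286 CPM in C6FAE, against 37.2, 34.1 and 36.2 CPM in MEF (log2 fold change 2.94, SE 0.27, adjusted p = 3.0e-06). Both stood above MEF in every library. The 6 endothelial markers, none of them at 0, summed to 71.2 to 81.6 CPM in C6FAE and 10.5 to 12.4 CPM in MEF. Kdr averaged 43.96 CPM in C6FAE and 5.13 CPM in MEF, Cdh5 22.78 and 0.901 CPM, and Pecam1 0.951 and 0.148 CPM. Tek and Tie1 were also higher, while Emcn went the other way, at 0.111 CPM in C6FAE and 1.07 CPM in MEF. The 6 endoderm markers summed to 588 to 622 CPM in C6FAE and 280.3 to 315 CPM in MEF, though Thbd was lower, at 211.5 CPM in C6FAE and 262.6 CPM in MEF. The 6 osteoblast markers summed to 79.4 to 82.1 CPM in C6FAE and 4.81 to 6.25 CPM in MEF. That sum lay mostly in Ibsp and Alpl, at means of 52.9 and 25.4 CPM in C6FAE. Dmp1 was lower, at 0.195 CPM in C6FAE and 2.69 CPM in MEF, and so was Bglap. The part of these lists in the rises was not tested. Col13a1, a transmembrane chain found at the neuromuscular junction, had 42.3, 39.8 and 41.4 CPM in C6FAE, against 0, 0 and 0.172 CPM in MEF. With 2 counts in MEF the ratio was 707-fold, with an exact interval of 195 to 5840.0-fold. The transmembrane chain Col25a1, needed for motor nerve growth into muscle, had 34.2, 37 and 36.9 CPM in C6FAE, against 1.34, 2.87 and 2.66 CPM in MEF (log2 fold change 3.97, SE 0.49, adjusted p = 3.6e-05). Col26a1, first described in testis and ovary, had 70.4, 52.4 and 69.6 CPM in C6FAE, against 12.4, 12.9 and 13.7 CPM in MEF (log2 fold change 2.30, SE 0.24, adjusted p = 5.0e-05).

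Col28a1, a chain of the sheath around Schwann cells, fell furthest outside the short chain class, with 0.411, 0.17 and 0.17 CPM in C6FAE, against 30.4, 35.6 and 41.9 CPM in MEF (log2 fold change -7.09, SE 1.15, adjusted p = 2.7e-04). The 4 Schwann cell markers summed to 2.12 to 2.89 CPM in C6FAE and 89.3 to 91.4 CPM in MEF; their part was not tested. Col9a1, which coats cartilage fibrils, had 0.164, 0.17 and 0.0849 CPM in C6FAE, against 3.75, 7.4 and 4.89 CPM in MEF (log2 fold change -5.14, SE 0.52, adjusted p = 1.5e-04). Among the basement membrane chains 3 of 6 fell, Col4a3, Col4a4 and Col4a5, while the abundant pair did not pass the call. Col4a1 had 1567, 1774 and 1573 CPM in C6FAE, against 2400.3, 2719.5 and 2509 CPM in MEF (log2 fold change -0.63, SE 0.43, adjusted p = 0.24). Only 1 of 5 beaded filament members tested, Col6a5, was called. Col6a1, a chain of the pericellular microfilaments, had 2945, 2838 and 3167 CPM in C6FAE, against 1556, 1529.6 and 1476 CPM in MEF and was not called, though the groups did not overlap (log2 fold change 0.98, SE 0.56, adjusted p = 0.16).

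With the second stage alone the major fibrillar chains were not called against MEF, while the short chain members and some cartilage members fell. In C6F(L) against MEF, 8 of 42 members were called higher and 11 lower, with 10.6% and 12.4% of all genes called, and the members' median log2 fold change was -0.51. Without replicate 4 of C6FAE-C6F(L) in the fit the counts were 10 and 16. Col3a1 had 10287, 12001 and 11271 CPM in C6F(L), against 10291, 9869.7 and 10177 CPM in MEF, and the ranges overlapped (log2 fold change 0.16, SE 0.80, adjusted p = 0.90). Col1a1 had 8251, 9230.0 and 8425 CPM in C6F(L), against 12223, 13313 and 12501 CPM in MEF (log2 fold change -0.54, SE 0.64, adjusted p = 0.53). Col1a2 had 5932, 6702 and 6267 CPM in C6F(L), against 10451, 10615 and 10452 CPM in MEF (log2 fold change -0.73, SE 0.70, adjusted p = 0.43). For both type I chains the groups did not overlap, but neither difference passed the test. Col5a1, which starts type I fibrils, had 2959, 3178 and 2985 CPM in C6F(L), against 3034, 3237 and 2871 CPM in MEF (log2 fold change 0.01, SE 0.46, adjusted p = 0.9962). Col5a2 had 1541, 1631 and 1602 CPM in C6F(L), against 3102, 3426 and 3390 CPM in MEF (log2 fold change -1.04). Col5a3 had 59.1, 68.1 and 60.9 CPM in C6F(L), against 150, 152 and 147 CPM in MEF (log2 fold change -1.24). Col5a2 and Col5a3 did not overlap between the groups, but neither was called in this fit.

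The falls were led by cartilage and short chain members, but not every cartilage chain fell. Col11a2 and Col27a1 were higher in every C6F(L) library than in MEF, under the size needed for a call (log2 fold change 0.86 and 0.82). The 7 chondrocyte markers summed to 9.54, 9.62 and 14.5 CPM in C6F(L), where Matn1 was at 0, and 64.6 to 84.3 CPM in MEF. Comp averaged 1.01 CPM in C6F(L) and 46.99 CPM in MEF. Cnmd alone of the list was higher, at 3.715 CPM in C6F(L) and 1.02 CPM in MEF. The part of these markers was not tested. Col2a1 had 0, 0.476 and 0.0919 CPM in C6F(L) (log2 fold change -8.46, SE 0.62, adjusted p = 1.1e-06), Col8a1 had 21.4, 22.9 and 21.4 CPM in C6F(L) (log2 fold change -6.12, SE 0.71, adjusted p = 3.5e-05) and Col8a2 had 3.93, 3.14 and 4.96 CPM in C6F(L) (log2 fold change -5.42, SE 0.29, adjusted p = 1.2e-07), beside the MEF values given above. No count of Col10a1 or Col9a1 was found in C6F(L), so that, set against a floor of 3 counts over the group, they were at least 834-fold and at least 56.4-fold lower. The rises were led by Col22a1, a fibril-associated chain of tissue junctions, with 3.54, 8.47 and 5.51 CPM in C6F(L), against 0.625, 0.61 and 0.601 CPM in MEF (log2 fold change 3.24, SE 0.49, adjusted p = 2.7e-04). Col6a5, a beaded filament chain, had 30.9, 38.8 and 31.8 CPM in C6F(L), against 5.36, 4.09 and 5.41 CPM in MEF (log2 fold change 2.78, SE 0.43, adjusted p = 2.8e-04). The fall of Col6a6 was lost without C6F(L) replicate 2 or 3. The transmembrane chain Col23a1 had 85.8, 73.2 and 82.6 CPM in C6F(L), against 14.5, 14.4 and 12.8 CPM in MEF (log2 fold change 2.55, SE 0.53, adjusted p = 0.0022) and Col25a1 had 12, 10.9 and 16 CPM in C6F(L), against 1.34, 2.87 and 2.66 CPM in MEF (log2 fold change 2.51, SE 0.48, adjusted p = 0.0014).

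Col18a1 had 1936, 1859.9 and 1955 CPM in C6F(L), again above all MEF libraries (log2 fold change 2.19, SE 0.16, adjusted p = 1.3e-06). The endothelial markers summed to 22.2 to 30.8 CPM in C6F(L), where Tie1 was at 0, and 10.5 to 12.4 CPM in MEF. Only Kdr and Cdh5 of the list were higher, at means of 19.64 and 4.52 CPM in C6F(L) and 5.13 and 0.901 CPM in MEF. The part of these markers was not tested. Col7a1 had 188, 153 and 181 CPM in C6F(L) (log2 fold change 2.29, SE 0.26, adjusted p = 2.9e-05). Col17a1, the transmembrane chain of the hemidesmosomes of basal keratinocytes, had 5.41, 0.952 and 2.85 CPM in C6F(L), against 0.536, 0.348 and 0.343 CPM in MEF (log2 fold change 2.88, SE 0.63, adjusted p = 0.0031). The 8 keratinocyte markers summed to 273, 22.6 and 104 CPM in the same C6F(L) libraries and to 4.2 to 6.61 CPM in MEF, where Krt5, Dsg3 and Krt1 were at 0; their part was not tested. None of the 6 basement membrane chains was called by edgeR or by DESeq2, and 1 was lower at an unadjusted p under 0.05. Col4a1 had 4404, 4238 and 4381 CPM in C6F(L) (log2 fold change 0.78, SE 0.43, adjusted p = 0.17), all above MEF. Both single-stage comparisons share the MEF libraries.

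**Figure D3:**
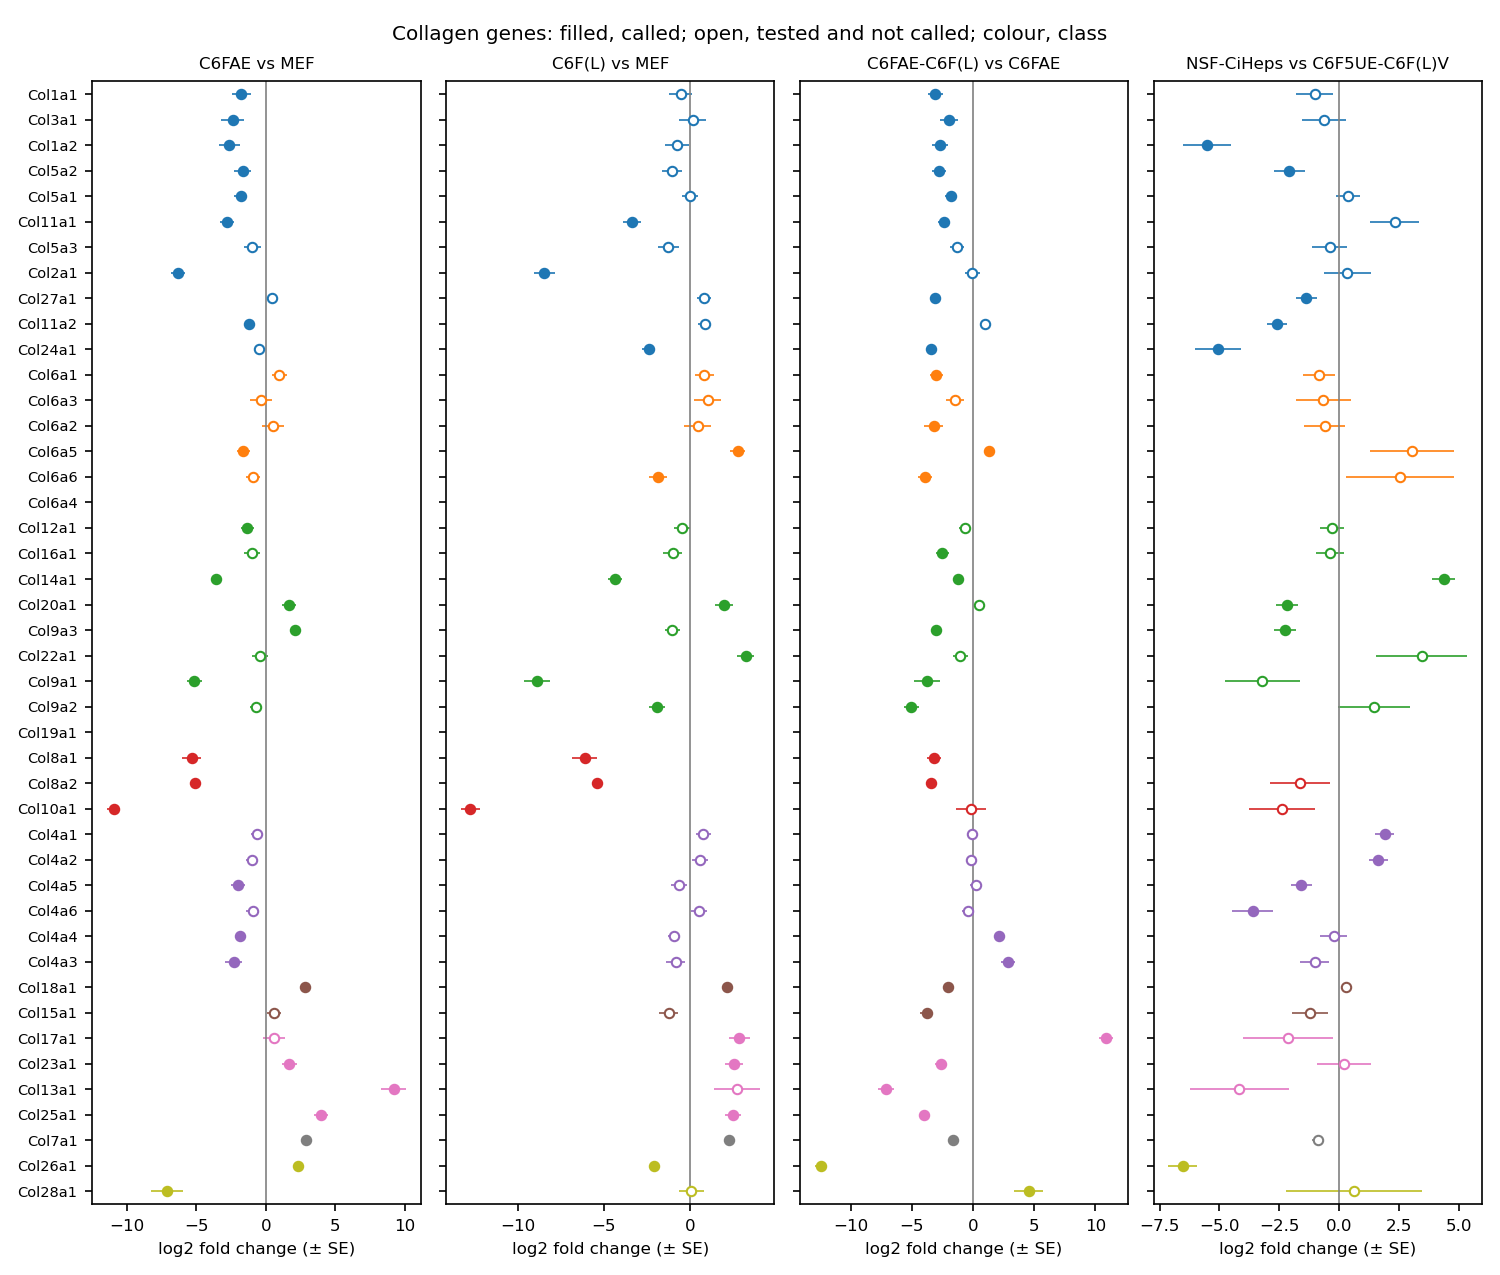
Log2 fold change of each member (point, bar ± SE) in 4 comparisons, in rows by class; filled points were called, open points were tested and not called, and a member without a point was not tested or had no count in either group. Short chain members lie far to the left in both single-stage panels, and Col17a1 stands alone at 10.90 in C6FAE-C6F(L) against C6FAE.

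Given in sequence, both stages took most fibrillar chains below either stage alone, and Col17a1 rose. Against MEF, C6FAE-C6F(L) had 3 of 42 members called higher and 29 lower, with 18.2% and 19.3% of all genes called, and a members' median log2 fold change of -2.43. Fibrillar chains fell in 10 of 11 cases. Col1a1 had 246, 211, 111 and 1158 CPM in C6FAE-C6F(L) (log2 fold change -4.83, SE 0.67, adjusted p = 5.5e-05, and -6.04 without replicate 4), Col1a2 had 146, 106, 48.9 and 699 CPM in C6FAE-C6F(L) (log2 fold change -5.35, SE 0.74, adjusted p = 5.6e-05, and -6.68 without replicate 4) and Col3a1 had 252, 156, 68.5 and 1452 CPM in C6FAE-C6F(L) (log2 fold change -4.35, SE 0.81, adjusted p = 5.5e-04, and -5.96 without replicate 4). In each of the 3 genes replicate 4 was the highest, and all 4 libraries were far below MEF. Without replicate 4, 31 members were called lower, the members' median was -3.62 and 23 of the 42 fold changes moved by over 1.5 times.

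Col17a1 had 702, 1293, 1550.0 and 1171 CPM in C6FAE-C6F(L), against 0.493, 0.764 and 0.594 CPM in C6FAE, 5.41, 0.952 and 2.85 CPM in C6F(L) and 0.536, 0.348 and 0.343 CPM in MEF. The rise was 2872-fold against MEF (log2 fold change 11.49, SE 0.60, adjusted p = 2.3e-08), 1902-fold against C6FAE (log2 fold change 10.90, SE 0.57, adjusted p = 3.2e-08) and 385-fold against C6F(L) (log2 fold change 8.61, SE 0.50, adjusted p = 1.2e-07). Replicate 4 did not stand apart here, at 1171 CPM beside a mean of 1182 CPM over replicates 1 to 3. All 8 keratinocyte markers reached at least 10 counts in this group and summed to 6933, 11399.5, 13501 and 13723 CPM in replicates 1 to 4, against 63.9 to 77.8 CPM in C6FAE. Their part in the Col17a1 result was not tested. Col17a1 lies on chromosome 19 (47646344 to 47692094, minus strand, GRCm38), and its promoter window is the last of those printed above.

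Col20a1 and Col7a1 also rose against MEF. Col20a1, a fibril-associated chain that shares 79 exon bases with another annotated gene on its strand, had 28.1, 29.8, 45 and 5.24 CPM in C6FAE-C6F(L), against 6.08, 5.66 and 6.18 CPM in MEF (log2 fold change 2.20, SE 0.50, adjusted p = 0.0020), but replicate 4 lay below all MEF libraries. Col7a1 had 51.2, 69, 92.9 and 128 CPM in C6FAE-C6F(L) (log2 fold change 1.28, SE 0.24, adjusted p = 5.8e-04), a call lost in size with the replicate block. The call of Col4a6 was lost without MEF replicate 3, that of Col22a1 without any MEF library or C6FAE-C6F(L) replicate 1, 3 or 4, and those of Col4a2 and Col6a3 without any MEF library or C6FAE-C6F(L) replicate 1, 2 or 3. Col18a1 had 652, 604, 668 and 924 CPM in C6FAE-C6F(L), above MEF in all 4 libraries but under the size needed (log2 fold change 0.78, SE 0.15, adjusted p = 6.8e-04). Col8a1 had 2.14, 0.589, 1.6 and 11.5 CPM in C6FAE-C6F(L) (log2 fold change -8.54, SE 0.70, adjusted p = 8.4e-07, and -10.00 without replicate 4), and Col8a2 had 0.979, 0.491, 0.0941 and 0.172 CPM in C6FAE-C6F(L) (log2 fold change -8.57, SE 0.33, adjusted p = 3.2e-09). No count of Col26a1 or Col9a1 was found, which made them at least 189.7-fold and at least 78.1-fold lower than in MEF, and Col10a1 with 1 count was 3464-fold lower (exact 95% interval 621 to 136900-fold).

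Set against C6FAE, the first stage alone, 5 of 42 members were called higher and 25 lower (16.1% and 17.6% of all genes; members' median -1.99, and -3.20 without replicate 4). Col26a1 was at least 935-fold lower, without a count in C6FAE-C6F(L). Col13a1 had 0.178, 0, 0 and 0.859 CPM in C6FAE-C6F(L) (log2 fold change -7.15, SE 0.65, adjusted p = 2.0e-06, and -9.10 without replicate 4) and Col25a1 had 2.23, 1.08, 0.753 and 4.55 CPM in C6FAE-C6F(L) (log2 fold change -4.00, SE 0.44, adjusted p = 1.1e-05, and -4.68 without replicate 4). Col6a6, a beaded filament chain, had 1.16, 0.294, 0 and 1.03 CPM in C6FAE-C6F(L), against 4.44, 16.5 and 9.42 CPM in C6FAE (log2 fold change -3.94, SE 0.60, adjusted p = 1.4e-04). Col9a2, a cartilage fibril coat chain, had 3 counts in C6FAE-C6F(L) and was 39.1-fold lower (exact 95% interval 13 to 193-fold), or 86.1-fold lower without replicate 4, with 1 count. The fall of Col3a1 (log2 fold change -1.95, SE 0.75, adjusted p = 0.041, and -3.56 without replicate 4) was lost in 6 of its alternatives, among them leaving out C6FAE-C6F(L) replicate 1 or 2 or any C6FAE library, and that of Col14a1 without C6FAE-C6F(L) replicate 2. Col18a1 was lower than in C6FAE (log2 fold change -2.04, SE 0.15, adjusted p = 3.5e-07).

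Next to Col17a1, the rises against C6FAE were in Col28a1, with 2.49, 2.16, 0.564 and 18.5 CPM in C6FAE-C6F(L), against 0.411, 0.17 and 0.17 CPM in C6FAE (log2 fold change 4.55, SE 1.18, adjusted p = 0.0055, and 2.77 without replicate 4), and in 2 chains of the kidney type of basement membrane. Replicate 4 was the highest in Col28a1 and also in the 4 Schwann cell markers, which summed to 5.34, 1.96, 1.22 and 7.90 CPM in C6FAE-C6F(L) and 2.12 to 2.89 CPM in C6FAE; their part was not tested. Col4a3 had 3.12, 1.47, 1.69 and 1.8 CPM in C6FAE-C6F(L), against 0.0822, 0.255 and 0.509 CPM in C6FAE (log2 fold change 2.83, SE 0.58, adjusted p = 0.0012), and Col4a4 had 8.1, 3.63, 3.86 and 3.18 CPM in C6FAE-C6F(L), against 1.07, 0.934 and 1.36 CPM in C6FAE (log2 fold change 2.09, SE 0.38, adjusted p = 5.1e-04). Col4a3 shares 563 exon bases with a gene on the other strand, and the kit does not mark strand, so reads there cannot be told apart. The rise of Col6a5 (log2 fold change 1.33, SE 0.45, adjusted p = 0.023, and 1.03 without replicate 4 (adjusted p = 0.053)) was lost in 6 of its alternatives, among them leaving out C6FAE-C6F(L) replicate 1 or 4 or C6FAE replicate 1 or 3.

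Against C6F(L), the same second stage without the first, 4 of 42 members were called higher and 31 lower (15.5% and 16.5% of all genes; members' median -1.94, and -2.85 without replicate 4). All 5 beaded filament members tested fell, and so did 4 of 6 basement membrane chains. Col6a3 had 136, 83.8, 64.5 and 965 CPM in C6FAE-C6F(L), against 2324, 2474 and 2369 CPM in C6F(L) (log2 fold change -2.90, SE 0.76, adjusted p = 0.0060, and -4.64 without replicate 4). Col22a1 had 0.089, 0.491, 0.0941 and 0.172 CPM in C6FAE-C6F(L) (log2 fold change -4.72, SE 0.51, adjusted p = 1.1e-05), Col3a1 fell (log2 fold change -4.50, SE 0.82, adjusted p = 5.4e-04, and -6.12 without replicate 4), as did Col1a2 (log2 fold change -4.62, SE 0.72, adjusted p = 1.7e-04, and -5.96 without replicate 4) and Col1a1 (log2 fold change -4.29, SE 0.65, adjusted p = 1.5e-04, and -5.50 without replicate 4), and Col26a1 was at least 43.4-fold lower. Col4a1 fell too (log2 fold change -1.51, SE 0.40, adjusted p = 0.0070). The rise of Col4a3 was lost without C6FAE-C6F(L) replicate 1 or C6F(L) replicate 2 or 3, that of Col4a4 without C6FAE-C6F(L) replicate 1 or C6F(L) replicate 2, and that of Col2a1 without C6FAE-C6F(L) replicate 4 or C6F(L) replicate 1 or 3. The rise of Col17a1 was called in every alternative run. The falls of Col7a1, Col4a5 and Col11a2 were lost without C6FAE-C6F(L) replicate 1 or 2 or C6F(L) replicate 1, those of Col4a5 and Col11a2 also without C6FAE-C6F(L) replicate 3 or C6F(L) replicate 3, and that of Col4a5 without C6F(L) replicate 2.

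Whether the second stage acted alike on treated and untreated cells was tested as an interaction, the second-stage effect after C6FAE minus the C6F(L) effect on MEF. It was called positive for 9 members and negative for 15 of 42 (16.2% and 16.8% of all genes; members' median -1.48, and -2.11 without replicate 4 of C6FAE-C6F(L)). Col18a1 changed by -2.04 after C6FAE and by 2.19 on MEF, a difference of -4.22 on the log2 scale (SE 0.22, adjusted p = 5.2e-08). For Col7a1 these were -1.65 and 2.29 (difference -3.94, adjusted p = 2.6e-06). Col17a1 changed by 10.90 after C6FAE and by 2.88 on MEF (difference 8.02, adjusted p = 1.3e-04). Both multiplexins and 3 of 4 transmembrane chains had negative differences, and all 3 short chain members positive ones, that of Col10a1 resting on 1 count. Col8a1 and Col8a2 fell after C6FAE too, by less than on MEF. Without replicate 4 of C6FAE-C6F(L), 29 members were negative.

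**Figure D4:**
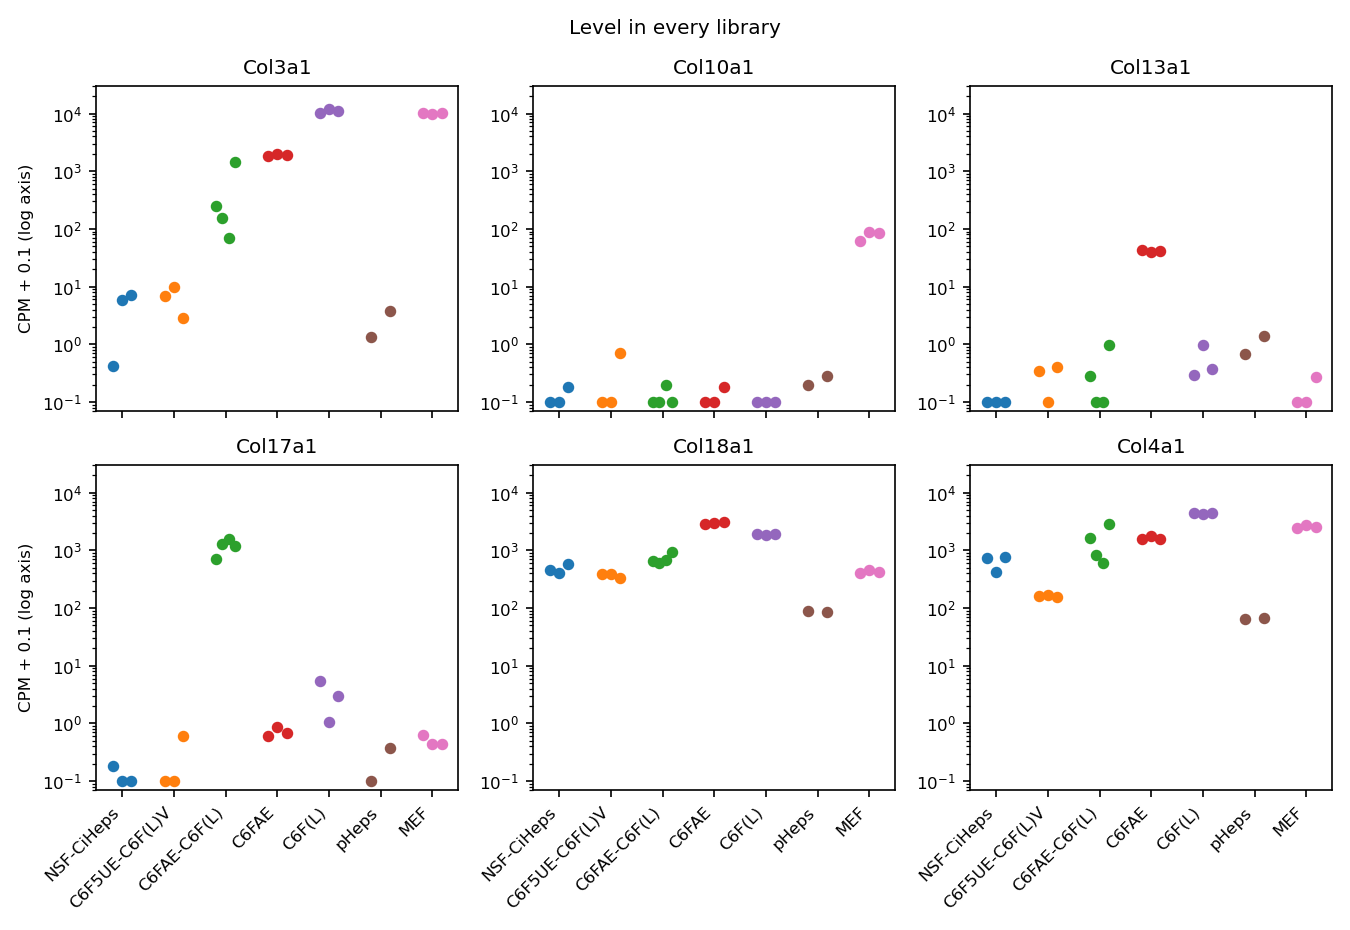
CPM + 0.1 on a log axis of 6 members in each of the 21 libraries, by group. Col17a1 is high in the 4 C6FAE-C6F(L) libraries at 702 to 1550.0 CPM, Col13a1 in the 3 C6FAE libraries at 39.8 to 42.3 CPM and Col10a1 in the 3 MEF libraries at 62.7 to 89.4 CPM.

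The C6F5UE-C6F(L)V cells had a larger share of collagen RNA than the cultured hepatocytes in the same deposited table. Of the 44 members 27 passed the filter on low counts, and 24 were called higher and 0 lower by edgeR, with 18.4% and 14.7% of all genes called; 0 were lower at an unadjusted p under 0.05 and 0 by DESeq2. A member that passed only through the group where it is high had to differ, so the count is a description. The highest members of the hepatocytes were among them. Col18a1 had 390.4, 382 and 338 CPM in C6F5UE-C6F(L)V, against 88.7 and 84.6 CPM in pHeps (log2 fold change 2.11, SE 0.11, adjusted p = 4.9e-09), and Col4a1 had 161, 166 and 153 CPM in C6F5UE-C6F(L)V, against 64.3 and 67.3 CPM in pHeps (log2 fold change 1.29, SE 0.10, adjusted p = 2.3e-07). Col4a2 had 142, 142 and 139.9 CPM in C6F5UE-C6F(L)V, against 38.8 and 39.2 CPM in pHeps (log2 fold change 1.86, SE 0.10, adjusted p = 6.7e-09). For these 3 the libraries of each group lay close together and did not overlap.

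Larger differences were found in members near 0 in hepatocytes. Col6a1 had 145, 147 and 120.1 CPM in C6F5UE-C6F(L)V, against 5.9 and 3.19 CPM in pHeps (log2 fold change 4.93, SE 0.20, adjusted p = 5.8e-10), and Col7a1 had 72, 70.4 and 68.9 CPM in C6F5UE-C6F(L)V, against 2.57 and 2.56 CPM in pHeps (log2 fold change 4.79, SE 0.17, adjusted p = 1.5e-10). Col4a6, a chain of smooth muscle basement membrane, had 12.4, 7.61 and 6.98 CPM in C6F5UE-C6F(L)V, against 0 and 0.365 CPM in pHeps (log2 fold change 5.52, SE 0.68, adjusted p = 1.8e-05). With no count in pHeps, Col26a1 was at least 40.5-fold, Col6a3 at least 15.2-fold and Col24a1 at least 8.58-fold higher in C6F5UE-C6F(L)V. The type I chains were low in both. Col1a1 had 9.84, 11.3 and 7.78 CPM in C6F5UE-C6F(L)V, against 1.14 and 0.456 CPM in pHeps (log2 fold change 3.60, SE 0.45, adjusted p = 2.1e-05), and Col1a2 had 26.4, 20.1 and 35 CPM in C6F5UE-C6F(L)V, against 1.33 and 0.913 CPM in pHeps (log2 fold change 4.60, SE 0.34, adjusted p = 1.7e-07). Col3a1 had 6.67, 9.61 and 2.79 CPM in C6F5UE-C6F(L)V, against 1.24 and 3.65 CPM in pHeps and was not called (log2 fold change 1.39, SE 0.56, adjusted p = 0.051). The fibroblast markers stood at 58.1 to 88.2 CPM in C6F5UE-C6F(L)V and 25.5 to 32.5 CPM in pHeps. That sum lay mostly in Dcn, at a mean of 42.5 CPM in C6F5UE-C6F(L)V and 10.2 CPM in pHeps. Twist1 alone of the list was lower, at 3.17 CPM in C6F5UE-C6F(L)V and 13.9 CPM in pHeps. The part of these markers was not tested. The call of Col14a1 was lost without pHeps replicate 1, and that of Col4a4 without either pHeps library.

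Set against the fibroblasts they came from, C6F5UE-C6F(L)V had 4 of 43 members called higher and 32 lower (25.7% and 26.4% of all genes; members' median -5.59). These libraries are in separate deposited tables, so table and group cannot be told apart. Col3a1 had 6.67, 9.61 and 2.79 CPM in C6F5UE-C6F(L)V (log2 fold change -10.55, SE 1.23, adjusted p = 5.6e-07) and Col1a1 fell by 10.28 on the log2 scale (SE 1.02, adjusted p = 7.8e-08). Col11a1, the partner of Col2a1 in cartilage fibrils, had 0.244, 0 and 0.599 CPM in C6F5UE-C6F(L)V, against 729.6, 748 and 693 CPM in MEF (log2 fold change -11.25, SE 0.79, adjusted p = 1.9e-09). Without a count in C6F5UE-C6F(L)V, Col8a1 was at least 17180-fold and Col6a6 at least 214-fold lower. Col18a1 was not called (log2 fold change -0.12, SE 0.16, adjusted p = 0.51). Col11a2, a further chain of cartilage fibrils, was the only member with its highest group mean here, with 46, 63.8 and 56.2 CPM in C6F5UE-C6F(L)V, against 9.56, 7.58 and 9.18 CPM in MEF (log2 fold change 2.73, SE 0.43, adjusted p = 2.0e-05). Col20a1 had 28.1, 26.1 and 20.3 CPM in C6F5UE-C6F(L)V (log2 fold change 2.13, SE 0.45, adjusted p = 4.0e-04). The rise of Col9a3 was lost without C6F5UE-C6F(L)V replicate 2 or 3 or MEF replicate 2 or 3, and that of Col7a1 without MEF replicate 2. Col9a3 shares 234 exon bases with the gene Tcfl5 on the other strand, and reads there cannot be told apart. The fall of Col26a1 was lost without C6F5UE-C6F(L)V replicate 1.

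Hepatocytes against the same MEF libraries, again across tables, had 1 of 43 members called higher and 39 lower (24.4% and 27.2% of all genes; members' median -7.88). All 11 fibrillar chains fell, Col1a1 among them (log2 fold change -13.88, SE 1.45, adjusted p = 1.8e-07). With no count in pHeps, Col8a1 was at least 11050-fold, Col6a3 at least 8426-fold, Col11a1 at least 5172-fold and Col8a2 at least 1246-fold lower. Col18a1 fell, with a log2 fold change of -2.23 (SE 0.19, adjusted p = 1.7e-08). The higher member was Col13a1, with 0.571 and 1.28 CPM in pHeps, against 0, 0 and 0.172 CPM in MEF, a ratio of 16.0 (exact 95% interval 3.89 to 141), and its call was lost without pHeps replicate 2, as was that of Col11a2. Those of Col20a1 and Col9a3 were lost without pHeps replicate 1.

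The starting fibroblast differs between NSF-CiHeps and C6F5UE-C6F(L)V, which followed the same protocol. NSF-CiHeps had 3 of 43 members called higher and 10 lower (12.3% and 16.2% of all genes; members' median -0.62), across 2 tables, so that table, origin and cell state cannot be told apart. The basement membrane pair rose. Col4a1 had 725, 419 and 761 CPM in NSF-CiHeps, against 161, 166 and 153 CPM in C6F5UE-C6F(L)V (log2 fold change 1.90, SE 0.39, adjusted p = 6.2e-04), and Col4a2 had 502, 315 and 583 CPM in NSF-CiHeps, against 142, 142 and 139.9 CPM in C6F5UE-C6F(L)V (log2 fold change 1.64, SE 0.41, adjusted p = 0.0027). Col14a1, a fibril-associated chain of dermis and tendon, had 21.9, 27.5 and 45.6 CPM in NSF-CiHeps, against 1.55, 1.81 and 0.898 CPM in C6F5UE-C6F(L)V (log2 fold change 4.37, SE 0.47, adjusted p = 7.6e-07). The groups did not overlap in these 3 members. Col18a1 had 450.4, 398 and 589 CPM in NSF-CiHeps, against 390.4, 382 and 338 CPM in C6F5UE-C6F(L)V (log2 fold change 0.29, SE 0.16, adjusted p = 0.14).

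Among the members that fell, Col1a2 had 0, 1.94 and 0 CPM in NSF-CiHeps, against 26.4, 20.1 and 35 CPM in C6F5UE-C6F(L)V (log2 fold change -5.52, SE 1.01, adjusted p = 2.2e-04), whereas Col1a1 was not called (log2 fold change -1.02, SE 0.77, adjusted p = 0.29). Col11a2 had 8.7, 7.22 and 13.1 CPM in NSF-CiHeps, against 46, 63.8 and 56.2 CPM in C6F5UE-C6F(L)V (log2 fold change -2.60, SE 0.43, adjusted p = 7.6e-05), and Col4a6 had 0, 2.29 and 0.0795 CPM in NSF-CiHeps, against 12.4, 7.61 and 6.98 CPM in C6F5UE-C6F(L)V (log2 fold change -3.62, SE 0.86, adjusted p = 0.0020). Col26a1 and Col24a1 had 2 counts and 1 count in NSF-CiHeps and were 103-fold (exact 95% interval 28.2 to 859-fold) and 43.7-fold (7.41 to 1770-fold) lower. The calls of Col5a2 and Col27a1 were lost without NSF-CiHeps replicate 1. Hepatocyte markers, at 390.5 to 2327 CPM in NSF-CiHeps and 21776 to 28603 CPM in C6F5UE-C6F(L)V, differed with them; their part was not tested.

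C6F5UE-C6F(L)V and C6FAE-C6F(L) differ in the retinoid, in UNC0638 and in vitamin C, and also in deposited table, which cannot be told apart from the group. Of 43 members 4 were called higher and 22 lower in C6F5UE-C6F(L)V (19.7% and 22.8% of all genes; members' median -2.15). Without replicate 4 of C6FAE-C6F(L), 5 were higher and 19 lower, and the median was -1.21. Col17a1 had 0, 0 and 0.499 CPM in C6F5UE-C6F(L)V and was 7811-fold lower (log2 fold change -12.77, SE 0.68, adjusted p = 1.2e-10). The keratinocyte markers summed to 20.3 to 27.9 CPM in C6F5UE-C6F(L)V and 6933 to 13723 CPM in C6FAE-C6F(L); their part was not tested. Without a count in C6F5UE-C6F(L)V, Col8a1 was at least 46.1-fold, Col6a5 at least 44.3-fold and Col25a1 at least 24.7-fold lower (at least 16.3-fold, 35.7-fold and 15.3-fold without replicate 4), and Col6a3 fell as well (log2 fold change -7.17, SE 1.07, adjusted p = 2.0e-05, and -5.42 without replicate 4). Col26a1 had 3.74, 6.98 and 6.58 CPM in C6F5UE-C6F(L)V and no count in C6FAE-C6F(L), at least 82.6-fold higher. Col11a2 (log2 fold change 2.95, SE 0.39, adjusted p = 4.0e-06), Col27a1, a fibrillar chain of cartilage (log2 fold change 2.74, SE 0.44, adjusted p = 2.9e-05, and 3.33 without replicate 4), and Col9a3 (log2 fold change 1.96, SE 0.41, adjusted p = 4.9e-04) rose. The limit given above on reads shared by Col9a3 and Tcfl5 holds here too. The calls of Col22a1, Col6a2 and Col5a3 were lost without C6FAE-C6F(L) replicate 4, that of Col22a1 also without C6FAE-C6F(L) replicate 2 or any C6F5UE-C6F(L)V library, and that of Col4a4 without C6F5UE-C6F(L)V replicate 1 or 2 or C6FAE-C6F(L) replicate 1.

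The abundant members of the other classes had their highest levels in different groups. Col12a1, a fibril-associated chain of tendon and skin, had 7.91, 24.5 and 17.5 CPM in NSF-CiHeps, 23.6, 24 and 9.68 CPM in C6F5UE-C6F(L)V, 673, 453, 452 and 2049 CPM in C6FAE-C6F(L), 1621, 1551 and 1329 CPM in C6FAE, 2834, 2636 and 2685 CPM in C6F(L), 4.38 and 6.39 CPM in pHeps and 3884, 3956 and 3589.7 CPM in MEF. Its levels in MEF and C6F(L) were the highest. Col16a1, a fibril-associated chain, had 6.55, 14.9 and 26 CPM in NSF-CiHeps, 23, 22.4 and 12.9 CPM in C6F5UE-C6F(L)V, 20.5, 11.8, 7.62 and 68.8 CPM in C6FAE-C6F(L), 154, 162 and 165 CPM in C6FAE, 152, 171 and 158 CPM in C6F(L), 1.62 and 1 CPM in pHeps and 319.6, 326 and 329 CPM in MEF, and every MEF library lay above all others. Col15a1, the other multiplexin, had 1.12, 1.58 and 0.636 CPM in NSF-CiHeps, 3.74, 2.63 and 0.698 CPM in C6F5UE-C6F(L)V, 3.12, 4.32, 1.6 and 17.1 CPM in C6FAE-C6F(L), 80.4, 115 and 88 CPM in C6FAE, 25.3, 28 and 26.4 CPM in C6F(L), 2.19 and 2.46 CPM in pHeps and 67.4, 65.3 and 55.8 CPM in MEF, with its highest values in C6FAE.

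In NSF-CiHeps, Col1a1 had 0.958, 11.8 and 2.47 CPM in NSF-CiHeps, Col3a1 had 0.319, 5.72 and 7.16 CPM in NSF-CiHeps and Col6a1 had 25.2, 30.6 and 189 CPM in NSF-CiHeps. Col6a3, the largest chain of type VI collagen, had 0.0799, 3.79 and 0.477 CPM in NSF-CiHeps, 3.17, 1.72 and 1.3 CPM in C6F5UE-C6F(L)V, 136, 83.8, 64.5 and 965 CPM in C6FAE-C6F(L), 992, 891 and 859.9 CPM in C6FAE, 2324, 2474 and 2369 CPM in C6F(L), 0 and 0 CPM in pHeps and 1188, 1241 and 1106 CPM in MEF. The libraries of NSF-CiHeps were spread more widely than those of MEF in each of these 4 genes relative to their mean.

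The balance between chains differed across the groups for some pairs and little for others. Ratios are of counts per kilobase within a library, given where both chains had 10 counts or more. Col4a1 over Col4a2, the pair with the shared 5′ ends printed above, lay between 0.970 and 1.52 in all 21 libraries. Col1a1 over Col1a2 was 0.421 to 1.07 in C6F5UE-C6F(L)V, 3.14 to 4.29 in C6FAE-C6F(L), 3.82 to 4.41 in C6FAE, 2.55 to 2.63 in C6F(L) and 2.21 to 2.38 in MEF. The length of 1 principal transcript in place of the deposited gene length, an alternative chosen after seeing the data, multiplies the ratio of a pair by the same factor in every library; on it the ratio of Col1a1 to Col1a2 was 0.200 to 0.508 in C6F5UE-C6F(L)V and 1.06 to 1.13 in MEF.

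Col3a1 over Col1a1 was 0.330 to 0.360 in C6FAE, 0.834 to 0.895 in C6F(L) and 0.496 to 0.563 in MEF, so that the single stages lay on either side of MEF. Col5a1 over Col5a2 was 0.924 to 0.976 in C6FAE, 2.11 to 2.20 in C6F(L) and 0.957 to 1.11 in MEF. Col6a1 over Col6a2 was 7.35 to 24.95 in NSF-CiHeps and 10.6 to 14.3 in C6F5UE-C6F(L)V, against 3.33 to 3.93 in pHeps and 2.63 to 2.75 in MEF. Col4a3 and Col4a4, which lie head to head on chromosome 1 with 71 bases between them, were both called higher in C6FAE-C6F(L) than in C6FAE. Col4a5 and Col4a6, with 1308 bases between them on chromosome X, were both called lower in NSF-CiHeps than in C6F5UE-C6F(L)V. They did not move together everywhere: in C6F(L) against MEF their log2 fold changes were -0.61 and 0.54, neither of them called. The ratios are a description, without a test.

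**Figure D5:**
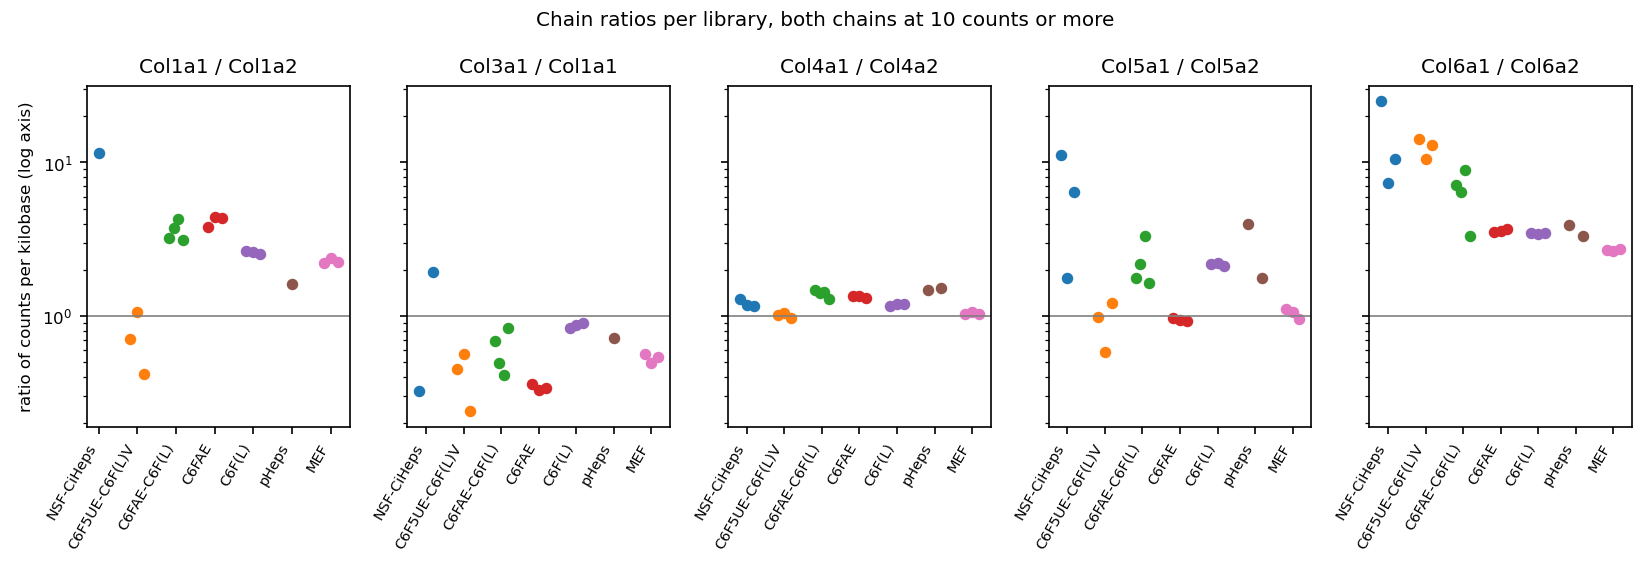
Ratio of counts per kilobase of 5 chain pairs in each library with 10 counts or more of both chains (log axis; the line marks equal levels). Col4a1 over Col4a2 stays between 0.970 and 1.52, while Col6a1 over Col6a2 reaches 24.95 in NSF-CiHeps.

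Genes that modify, fold, trim, crosslink and bind collagen were counted in 6 lists, chosen by function. In C6FAE against MEF, where 15.6% of all genes were called higher and 14.7% lower, 7 of 8 collagen-binding proteoglycans fell. Of 5 crosslinking enzymes 3 fell and 2 rose, and of 17 folding and export genes 2 rose, a smaller share than over all genes. The lysyl oxidase Lox averaged 415 ± 29.5 CPM in C6FAE and 5020.0 ± 324 CPM in MEF (SD; log2 fold change -3.59, SE 0.33, adjusted p = 3.3e-06), its relative Loxl4 averaged 77.6 ± 3.2 CPM in C6FAE and 27 ± 4.4 CPM in MEF (SD; log2 fold change 1.52, SE 0.30, adjusted p = 0.0011), and the proteoglycan Bgn averaged 165 ± 9.82 CPM in C6FAE and 5778 ± 174 CPM in MEF (SD; log2 fold change -5.13, SE 0.56, adjusted p = 1.3e-05). The collagen-binding integrin Itga2 averaged 50.8 ± 0.673 CPM in C6FAE and 3.49 ± 0.449 CPM in MEF (SD; log2 fold change 3.86, SE 0.51, adjusted p = 6.0e-05). In C6F(L) against MEF, where 10.6% of all genes were called higher and 12.4% lower, 5 of 8 proteoglycans fell and 2 rose, and 3 of 5 crosslinking enzymes fell. Kera, the proteoglycan keratocan of the cornea, averaged 39.8 ± 1.88 CPM in C6F(L) and 0.876 ± 0.687 CPM in MEF (SD; log2 fold change 5.50, SE 0.53, adjusted p = 8.0e-06). Adamts2, which removes the front propeptide of fibrillar collagens, averaged 1962 ± 73 CPM in C6F(L) and 359 ± 20.2 CPM in MEF (SD; log2 fold change 2.46, SE 0.32, adjusted p = 7.6e-05), and the integrin Itga11 averaged 14.3 ± 1.2 CPM in C6F(L) and 455 ± 31.1 CPM in MEF (SD; log2 fold change -4.97, SE 0.33, adjusted p = 5.4e-07).

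In C6FAE-C6F(L) against MEF, where 19.3% of all genes were called lower, 10 of 13 hydroxylation genes, 9 of 17 folding and export genes, 6 of 7 propeptide cleavage genes tested, 4 of 5 crosslinking enzymes and 8 of 8 proteoglycans fell. Serpinh1, the chaperone of collagen chains, averaged 160.1 ± 83.7 CPM in C6FAE-C6F(L) and 1799 ± 77 CPM in MEF (SD; log2 fold change -3.45, SE 0.33, adjusted p = 3.2e-06). The prolyl hydroxylase subunit P4ha3 averaged 2.52 ± 2.61 CPM in C6FAE-C6F(L) and 113 ± 5.77 CPM in MEF (SD; log2 fold change -5.42, SE 0.47, adjusted p = 1.3e-06), with a log2 fold change of -6.46 without replicate 4. In C6F5UE-C6F(L)V against pHeps, 4 of 12 hydroxylation genes rose and 2 fell, and 4 of 8 receptor genes rose and 1 fell, where 18.4% of all genes were called higher and 14.7% lower, so that the lower counts of both lists lay near the share over all genes. Serpinh1 averaged 51.9 ± 7.21 CPM in C6F5UE-C6F(L)V and 4.69 ± 1.99 CPM in pHeps (SD; log2 fold change 3.48, SE 0.24, adjusted p = 7.1e-08), and the collagen receptor Ddr2 averaged 42.6 ± 6.61 CPM in C6F5UE-C6F(L)V and 0.651 ± 0.112 CPM in pHeps (SD; log2 fold change 6.01, SE 0.28, adjusted p = 2.2e-09).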

How the data were processed

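RNA-seq counts per gene were read from 3 deposited tables of 54532 genes each; these raw counts were made by the authors, with HISAT2 and GRCm38 (mm10) named per the submitters' processing notes, with counting tool, annotation and strand setting not given in the sources used here. The library kit does not mark strand, per the labels. All 44 members had the coordinates of GENCODE M21. FPKM values deposited by the authors served only as an alternative for chain ratios: of 16 FPKM columns, 13 fitted the counts under their own label, 3 of MEF fitted another replicate of the group, and the FPKM table of NSF-CiHeps held the counts themselves and was not used.

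The libraries held 9180939 to 12319883 counts, and CPM scales a count to the total multiplied by the TMM factor over all 21 libraries, an effective size of 10024142 to 12575290. Tests were edgeR 4.0.16 quasi-likelihood fits (R 4.3.3, TMM, minimum count 10 and minimum total 15) over all genes, with an adjusted p threshold of 0.05 and a log2 fold change threshold of 1. C6FAE-C6F(L), C6FAE, C6F(L) and MEF shared a fit of 13 libraries, C6F5UE-C6F(L)V and pHeps a fit of 5, and comparisons across tables a fit of 21. Of the 44 members, 42, 27 and 43 were tested in these fits. DESeq2 1.42.0, other scalings, no filter, fewer libraries and a replicate block were alternatives, and pandas 2.3.3 and scipy 1.17.1 did the rest. Intervals and floors cover counting error only. The scripts were tested on simulated data.

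The members and lists were chosen with earlier results of these data known. Values in every library are given for the highest members of each class and for the 5 largest called rises and falls of each comparison with a group mean of at least 1 CPM; other members named were chosen after their values were seen. Replicate numbers come from the labels, with no statement that they pair samples. Lowest chi-square per gene between replicates was 3.31, so no library was counted as a repeat.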

Additional observations from a re-analysis of the deposited data

Results flagged for a closer look

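In C6FAE-C6F(L), the only group of 4 libraries, 37 members with 10 counts or more in the group were examined for a library standing apart by Dixon's criterion (0.829 for 4 samples), which chance meets in about 1 in 20 groups. It was met in 15 members, 14 of them through replicate 4. Among the fibrillar chains, replicate 4 had 1158 CPM of Col1a1, 699 CPM of Col1a2, 1.80 CPM of Col2a1, 1452 CPM of Col3a1, 539 CPM of Col5a1, 81.2 CPM of Col5a3 and 46.6 CPM of Col11a1. It also had 2049 CPM of Col12a1, 2.83 CPM of Col9a3, 120.2 CPM of Col4a5, 500.1 CPM of Col6a2, 965 CPM of Col6a3, 18.5 CPM of Col28a1 and 11.5 CPM of Col8a1. Replicate 1 stood apart with 8.10 CPM of Col4a4. The members are not independent of one another here, since they share 1 library. That library also stood apart beyond the collagen genes. Chi-square per gene was 101.6, 138.6 and 158.6 between replicate 4 and replicates 1, 2 and 3, over 14559 to 14728 genes. Among replicates 1 to 3 it was 23.45 to 45.98. The share of all genes that meet Dixon's criterion was not counted.

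The second stage changed 24 members differently after C6FAE than on MEF, by an edgeR quasi-likelihood test of the difference itself. The values are log2 differences, after C6FAE minus on MEF. They were positive for Col10a1 (12.59), Col2a1 (8.40), Col17a1 (8.02), Col28a1 (4.45), Col4a3 (3.66), Col14a1 (3.09), Col4a4 (3.01), Col8a1 (2.92) and Col8a2 (1.98). Of these, Col17a1, Col28a1, Col4a3 and Col4a4 rose after C6FAE. Col14a1, Col8a1 and Col8a2 fell by less, at -1.26, -3.20 and -3.45 after C6FAE and -4.35, -6.12 and -5.42 on MEF. Col2a1 changed by -0.05 after C6FAE, where it stood at 0.594 to 1.07 CPM, and by -8.455 on MEF. Col10a1 changed by -0.18 and -12.77. Negative values were found for Col26a1 (-10.37), Col13a1 (-9.87), Col25a1 (-6.51), Col23a1 (-5.18), Col22a1 (-4.28), Col18a1 (-4.22), Col27a1 (-3.94), Col7a1 (-3.94), Col6a1 (-3.83), Col6a2 (-3.69), Col9a2 (-3.14), Col15a1 (-2.57), Col1a1 (-2.54), Col9a3 (-1.99) and Col5a1 (-1.84). Without replicate 4 of C6FAE-C6F(L), the values that moved by over 1.5 times were -4.05 for Col9a2, -4.75 for Col6a1, -5.38 for Col6a2, -3.74 for Col1a1, 7.61 for Col2a1, -2.65 for Col5a1, -3.71 for Col15a1, 2.67 for Col28a1, 1.46 for Col8a1, -11.83 for Col13a1, -6.05 for Col23a1 and -7.19 for Col25a1. The call of Col10a1 was lost without C6FAE-C6F(L) replicate 3, that of Col28a1 without C6FAE replicate 2 or 3, and that of Col8a2 without C6FAE-C6F(L) replicate 1. Those of Col1a1 and Col5a1 were each lost under 8 alternatives. Fitted values of Col10a1 and Col26a1 rest on groups with 1 count or none and are no bounds.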

How the results depend on the processing

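Of 266 named results over 37 genes, 230 lost their call under no alternative that gave an adjusted p, and none reversed. DESeq2 lost 1 and gave no adjusted p for 33, which were not counted as lost. Leaving out 1 library lost 104 of 1920 calls tested. As a share of protein-coding counts, collagen held 2.45% in C6FAE, 4.93% in C6F(L), 0.0244% in pHeps and 5.46% in MEF. Without Col1a1, Col1a2 and Col3a1, a choice made after seeing the data, it held 1.60, 2.30, 0.0231 and 2.18% in those groups, so that C6F(L) lay above MEF. The 4 members higher in C6FAE-C6F(L) than in C6F(L) became 2 with the replicate block, 1 with only those groups fitted and 2 to 4 with 1 library left out. The 15 negative interactions became 29 with the replicate block and 29 without C6FAE-C6F(L) replicate 4, and 13 to 29 with 1 library left out. Only C6FAE-C6F(L) has a replicate 4, so the block gives that library a term of its own. The block and leaving out replicate 4 are therefore not separate alternatives. The 4 members higher in C6F5UE-C6F(L)V than in MEF became 2 without the filter and 2 to 4 with 1 library left out. The 1 member higher in pHeps than in MEF became 0 with only those groups fitted and 0 to 1 with 1 library left out. The cause was not tested. Same-numbered replicates did not deviate together (correlations -0.0269 to 0.0285), which gave no sign of pairing by number but cannot show that there was none. DESeq2 called 21 members lower in C6FAE-C6F(L) than in MEF, against 29, since 8 had no adjusted p. At 9180939 to 12319883 counts per library, members near 0 limit the precision.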
